A study of Mus musculus with 6 samples.

Results

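The genes described here are 58 transcription factor genes that pattern the embryo and lie outside the Hox clusters, all on autosomes. They were chosen by name, as Pax, Sox, Nkx, Lhx, Tbx, Dlx and Irx genes, Six2, Six3, Six6 and 17 others, and all 58 symbols were found in the RefSeq gene table of GRCm38.p6, which lists 21887 protein-coding genes. For each gene, every CpG position from 2 kb before to 2 kb after its annotated span was taken if it had 10 or more reads in all 6 libraries. These gene windows held 10742 CpG positions of 1463044 covered in the whole series, 30 to 481 per gene with a median of 174.5, and no position belonged to more than 1 window.

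The libraries came from germinal centre B cells of C57BL/6 mouse spleens, the dividing B cells in which antibody genes are diversified. The genotype was labelled Tet2 wild-type (WT) in 3 libraries and Tet2 knock-out (KO) in 3. Tet2 encodes an enzyme that oxidises 5-methylcytosine, a step towards its removal. The sources used here do not give the construction of the knock-out allele, the age of the mice or the purification of the cells. Methylation was read by enhanced reduced representation bisulfite sequencing, which samples CpG-rich fragments and reads 5-methylcytosine and 5-hydroxymethylcytosine as one. The labels do not say that the libraries came from separate mice, so p-values reflect only how far the libraries spread, and that spread may be technical.

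Genes of this kind are switched on in particular tissues, many of them in the embryo, and most are silent in mature blood cells. In such cells their CpG islands, stretches dense in CpG dinucleotides, are typically held silent by Polycomb complexes, which modify histones, while the DNA itself stays mostly unmethylated. Polycomb binding and expression were not measured here, so the genes are described by their DNA methylation alone.

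Over the 58 genes the mean coverage per CpG position was 117 to 149 reads per library, and the 6 libraries held 174375503 to 203863392 reads over CpGs. On mitochondrial DNA 0.260%, 0.410% and 0.241% of reads were called methylated in WT replicates 1, 2 and 3 and 0.258%, 0.408% and 0.294% in KO replicates 1, 2 and 3. Within Tet2, 6 CpG positions were listed in all 3 WT libraries and in no KO library, and 0 the other way round. Start regions of the B-cell genes Cd79b, Ebf1 and Pax5 had WT means of 0.246% to 0.533%, but that of Blk was at 88.8%. Those of the T-cell gene Zap70 and the myeloid genes Csf1r and Cebpe were at 81.5% to 85.3% in WT, while Cd4 and Cd14 were at 0.627% and 0.219%.

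The promoters of these genes differ widely in CpG content. RefSeq promoter sequences (GRCm38.p6, 250 bases before to 50 after the start, 300 in all) were matched for 41 of the 58 genes. Their median number of CG dinucleotides was 22, against 13 over 17492 protein-coding genes, and 34 of the 41 (82.9%) held 10 or more, against 57.2%. Below are the 3 promoters of the genes with the lowest methylation around the start (Dlx1, Lhx2 and Dlx2), 2 of the genes with the highest (Nkx2-5 and Pax8), and that with the largest difference between genotypes (Lhx9). Capitals mark CG dinucleotides covered in all 6 libraries on at least 1 strand.
Dlx1 (chr2:71529195-71529494, plus strand): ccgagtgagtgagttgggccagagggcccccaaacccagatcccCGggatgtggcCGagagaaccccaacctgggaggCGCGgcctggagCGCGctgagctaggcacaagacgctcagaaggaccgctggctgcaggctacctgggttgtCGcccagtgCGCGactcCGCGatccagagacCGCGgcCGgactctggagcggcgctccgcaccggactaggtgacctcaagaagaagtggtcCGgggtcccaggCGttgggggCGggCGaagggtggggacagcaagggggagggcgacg
Lhx2 (chr2:38339031-38339330, plus strand): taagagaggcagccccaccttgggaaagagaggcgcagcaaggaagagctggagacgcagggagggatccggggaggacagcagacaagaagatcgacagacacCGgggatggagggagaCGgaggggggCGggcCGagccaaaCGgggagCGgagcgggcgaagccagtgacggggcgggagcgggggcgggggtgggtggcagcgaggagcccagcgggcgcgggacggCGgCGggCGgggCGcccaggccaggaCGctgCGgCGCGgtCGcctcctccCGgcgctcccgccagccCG
Dlx2 (chr2:71546705-71547004, minus strand): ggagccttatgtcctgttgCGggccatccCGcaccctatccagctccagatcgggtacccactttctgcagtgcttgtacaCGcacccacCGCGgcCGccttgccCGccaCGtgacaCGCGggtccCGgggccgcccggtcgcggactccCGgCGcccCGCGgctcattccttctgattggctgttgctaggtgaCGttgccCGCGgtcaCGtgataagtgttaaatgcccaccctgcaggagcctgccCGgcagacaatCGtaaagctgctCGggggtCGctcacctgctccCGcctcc
Nkx2-5 (chr17:26841516-26841815, minus strand): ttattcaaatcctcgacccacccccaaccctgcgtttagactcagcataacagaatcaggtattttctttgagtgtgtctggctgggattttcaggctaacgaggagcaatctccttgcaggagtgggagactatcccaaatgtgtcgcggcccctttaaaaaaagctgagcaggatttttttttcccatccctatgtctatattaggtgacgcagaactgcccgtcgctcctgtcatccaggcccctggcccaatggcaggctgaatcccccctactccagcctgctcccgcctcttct
Pax8 (chr2:24475550-24475849, minus strand): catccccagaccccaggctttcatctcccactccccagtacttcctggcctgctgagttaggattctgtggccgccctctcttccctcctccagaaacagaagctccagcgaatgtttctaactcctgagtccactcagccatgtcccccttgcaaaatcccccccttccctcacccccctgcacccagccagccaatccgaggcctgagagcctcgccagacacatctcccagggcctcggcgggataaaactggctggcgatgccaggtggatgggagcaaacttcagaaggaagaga
Lhx9 (chr1:138842395-138842694, minus strand): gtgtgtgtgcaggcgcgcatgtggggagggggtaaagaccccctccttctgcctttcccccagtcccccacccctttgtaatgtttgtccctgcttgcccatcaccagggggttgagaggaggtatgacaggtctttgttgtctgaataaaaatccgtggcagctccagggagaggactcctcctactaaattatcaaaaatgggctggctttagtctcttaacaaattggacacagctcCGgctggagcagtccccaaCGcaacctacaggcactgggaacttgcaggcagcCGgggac

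The Dlx1, Lhx2 and Dlx2 promoters hold 27, 34 and 29 CG dinucleotides, of which 18, 17 and 24 were covered, and these were almost free of methylation. The Dlx1 promoter was at 1.14%, 1.55% and 0.453% in WT replicates 1, 2 and 3 and at 0.415%, 0.349% and 1.44% in KO replicates 1, 2 and 3. Lhx2, which encodes a LIM homeodomain factor of the forebrain and eye, was at 0.404%, 0.159% and 0.803% in WT and 0.205%, 1.39% and 1.48% in KO. In both promoters the genotypes overlapped. The Dlx2 promoter was at 1.07%, 1.08% and 0.539% in WT and 1.205%, 1.23% and 1.18% in KO, where every KO library lay above every WT library, 0.306 points apart on average. The Nkx2-5 and Pax8 promoters hold 9 and 7 CG dinucleotides, none of them covered in all 6 libraries. The Lhx9 promoter, at a start inside the annotated span of the gene, holds 6, of which 3 were covered at 4 positions on either strand. Those positions were at 4.34%, 12.6% and 9.31% in WT and 11.5%, 16.97% and 12.3% in KO, a difference of 4.81 points with overlapping libraries. By reads the difference was 5.32 points and every KO library lay above every WT library (adjusted p = 0.756, limma-moderated test). The share of all promoters apart by reads was not counted.

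The 58 genes were methylated at a low level in both genotypes, yet few of their CpG positions were free of methylation. Averaged over CpG positions and then over genes, the gene windows were at 7.22%, 7.43% and 7.13% in WT replicates 1, 2 and 3 and at 7.86%, 7.48% and 7.66% in KO replicates 1, 2 and 3. The lowest KO library stood just above the highest WT library. The same mean over 16057 autosomal gene windows was 29.8% ± 0.4499 in WT (SD, n = 3, as for all values below) and 30.6% ± 0.131 in KO. In WT 23 of the 58 windows were under 5%, and 3 stood above 20%, those of Pax8, Tbx4 and Pax3.

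A broad class of slightly methylated positions marked these genes in both genotypes. Of the CpG positions in the 58 windows 27.1% had a mean of 5% to 20% over the 6 libraries, against 6.15% in all autosomal gene windows. Positions with 0 methylated reads in all 6 libraries made up 7.86% in the 58 genes and 33.03% in all windows. Among positions under 5%, the WT mean was 1.66% ± 0.0937 in the 58 genes and 0.505% ± 0.0157 in all windows. Highly methylated positions were the opposite case, with 1.899% of positions over 80%, against 22.1%. A level of a few percent can come from full methylation in few cells or sparse methylation in many, and per-position levels cannot tell these apart. These shares are descriptions, and no test was made of the 58 genes against the rest.

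**Figure D1:**
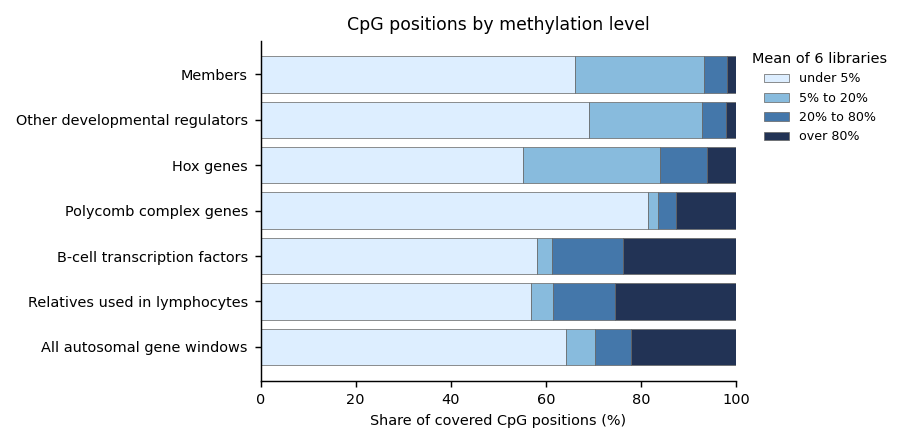
Share of covered CpG positions (x axis, %) in 4 classes of methylation level, by the mean of all 6 libraries, for the 58 genes (Members), 5 comparison lists and all autosomal gene windows. The 5% to 20% class takes 27.1% of positions in the 58 genes, 28.7% in Hox genes and 1.98% in the genes of the Polycomb complexes.

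Other genes of embryonic patterning looked alike, and the genes that encode the Polycomb machinery did not. In a list of 86 further developmental regulators 23.9% of positions were at 5% to 20% and 9.44% were at 0. In 39 Hox genes these shares were 28.7% and 8.16%. In 33 genes of the Polycomb complexes they were 1.98% and 53.00%. The 20 B-cell transcription factor genes, among them Ebf1 and Pax5, had 3.36% and 34.3%.

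Single genes differed in how the slight methylation was spread. Sox11, a SoxC gene of developing neurons, had 64.6% of its 195 positions at 5% to 20%, and Sox14 had 54.8%. Irx1, Neurog1 and Pax1 followed with 50.8%, 48.98% and 48.1%. At the other end Hand2, a heart and limb gene, had 6.76%, and Dlx2 11.7%. In 6 genes (Nkx3-2, Sox9, Sox17, Sox21, Olig1 and En2) no position reached a mean of 20% over the 6 libraries. The 730 positions over 20% were unevenly held, as Pax2, Pax7, Tbx4, Tbx5, Gata4, Pax3, Lhx4 and Foxc1 carried over 50% of them.

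Around the start of the genes the methylation stayed low over a wide stretch. In the 250 bases before the start, the 41 genes with a RefSeq start were at 2.19% ± 0.442 in WT and 2.57% ± 0.223 in KO, and all 16457 autosomal genes with a start at 1.83% ± 0.0427 and 1.93% ± 0.0466. From 1750 to 2000 bases after the start the 41 genes were at 4.56% ± 0.353 in WT, where all genes had reached 28.3% ± 0.734. From 2000 to 1750 bases before the start the values were 5.16% ± 0.4398 and 30.03% ± 0.732. The bins of the 41 genes held 31 to 611 CpG positions. Some of the starts used, such as those of Lhx9 and Tbx4, lie inside the annotated gene span.

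**Figure D2:**
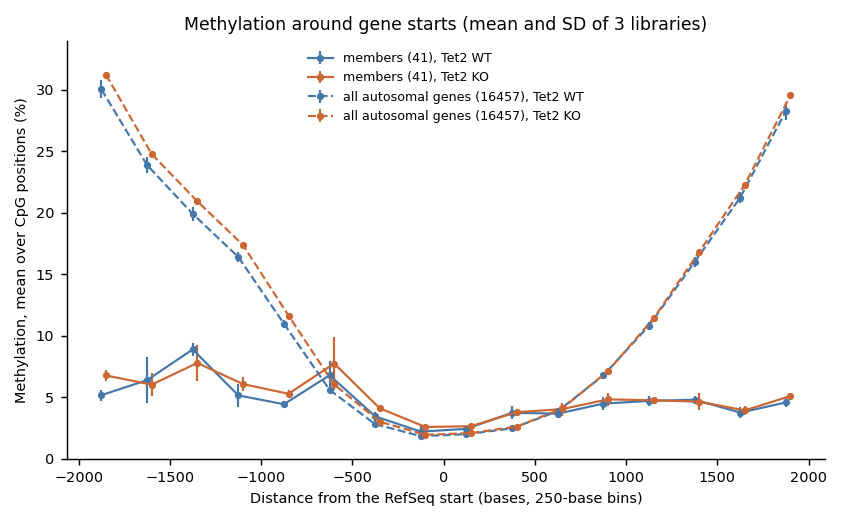
Methylation (y axis, mean over CpG positions, %) against distance from the RefSeq start (x axis, 250-base bins) in Tet2 WT (blue) and KO (orange), with points for the mean and bars for the SD of 3 libraries. The 41 developmental genes (solid lines) stay between 2.19% and 8.88% in WT, while all autosomal genes (dashed lines) climb to 30.03% at the upstream edge.

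The main comparison asked whether the 58 genes were more methylated without Tet2. On average they were higher in KO by 0.408 percentage points, from 7.26% ± 0.1504 to 7.67% ± 0.1896, and no gene window passed the test. The KO mean lay above the WT mean in 44 of 58 windows (75.9%), where it did so in 78.2% of autosomal gene windows. All 3 KO libraries lay above all 3 WT libraries in 9 of the 58, and below them in 0. The same held in 24% and 1.56% of autosomal windows. By reads the KO libraries were all above in 12 of the 58 and all below in 0, against 14.2% and 1.87%. Only Dlx2, Irx2 and Nkx3-2 were apart on both scales, while Pax7, Pax8, Pax9, Tbx4, Dlx1 and Sox21 were apart over positions and overlapped by reads. The median difference was 0.391 points in the 58 genes and 0.442 points in all autosomal windows, and single genes ranged from -0.909 to 3.51 points. With methylated reads taken over all reads, 11 of the 58 genes changed the sign of their difference.

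Reads summed over each window were tested with a quasi-binomial model whose dispersion was moderated across all windows as in limma, with Benjamini-Hochberg adjustment over 12419 windows of 5% to 95% methylation. The call required group means 10 or more points apart as well as an adjusted p under 0.05. Of the 33 genes that fell in the tested range, 0 were called in either direction, against a background of 0% called higher and 0.00805% called lower. The lowest adjusted p was 0.369, for Lhx4. An unadjusted p under 0.05 was found for 3 of the 33, Lhx4, Pax2 and Foxc1, all higher in KO by reads. Over all windows 11.5% had such a p with a higher level in KO and 0.636% with a lower one. Limma on log2 ratios and the model with unmoderated dispersion also called 0 of the 33, with 0 and 4 at an unadjusted p under 0.05. With the 25 genes outside the range added, 0 of 58 were called, where 0 of 16571 windows were called higher and 1 lower. Under that setting 10 of the 58 had such a p. The share of all windows with such a p was not counted under these alternatives, so these counts have no background beside them.

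By CpG class, the difference was under 2 points at each level. Positions under 5% were at 1.66% ± 0.0937 in WT and 2.11% ± 0.225 in KO, and those of 5% to 20% at 9.15% ± 0.623 and 9.28% ± 0.0474. In all autosomal gene windows these classes differed by 0.119 and 1.005 points, against 0.455 and 0.131 in the 58 genes. The most similar lists lay between these values. The further developmental regulators differed by 0.336 and 0.415 points and the Hox genes by 0.349 and 0.608. The lowest class also started higher in the 58 genes, at 1.66% in WT against 0.505% in all windows. The 526 positions of 20% to 80% stood at 38.9% ± 0.506 in WT and 40.02% ± 1.04 in KO, 1.12 points apart. The same class in all autosomal gene windows differed by 4.76 points, from 53.1% ± 2.16 to 57.9% ± 0.263. In B-cell transcription factor genes this class differed by 12.4 points, from 49.2% ± 7.60 to 61.6% ± 0.749. Its WT libraries were spread, at 40.7%, 51.5% and 55.4% in replicates 1, 2 and 3. The classes were cut on the mean of all 6 libraries, and the difference between the gene groups was not tested.

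**Figure D3:**
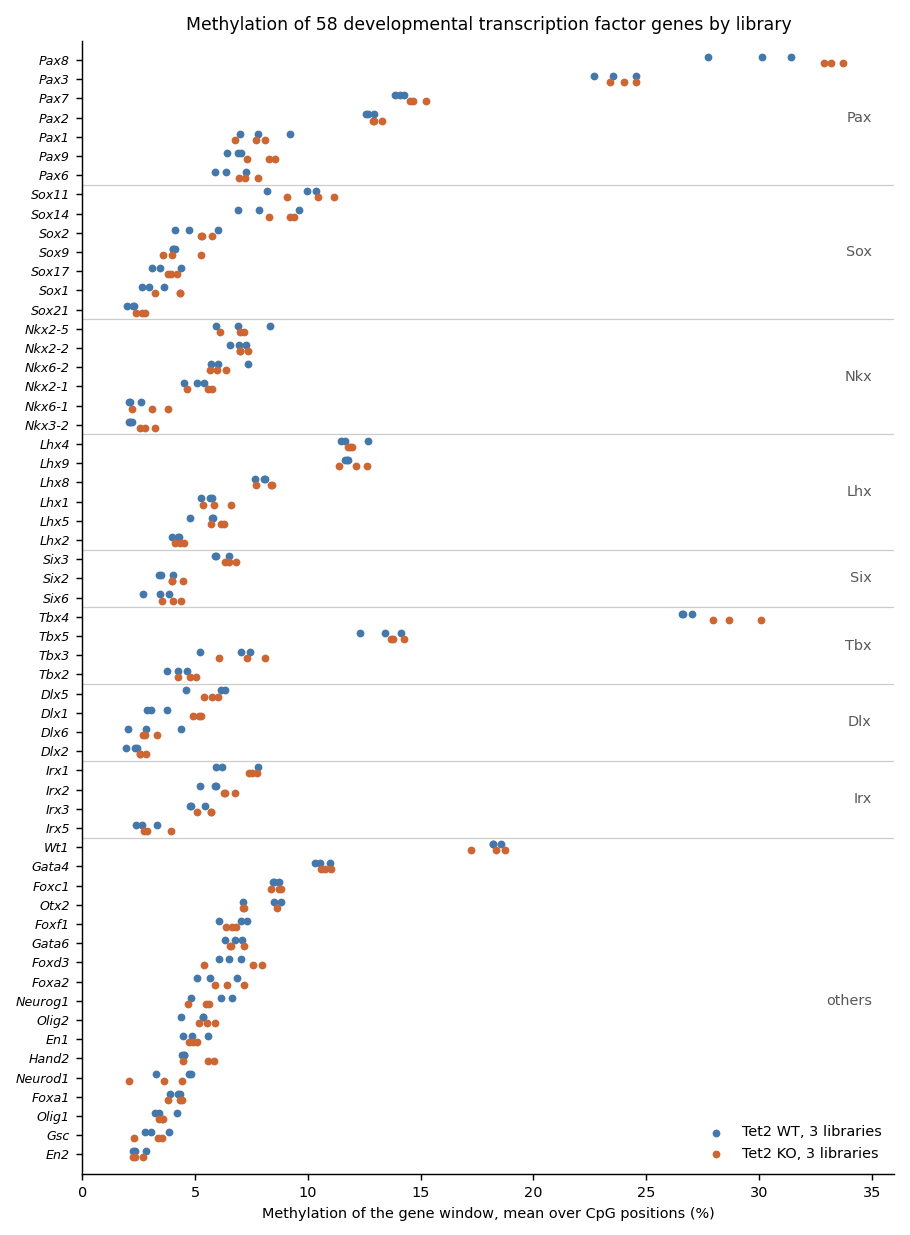
Methylation of each gene window (x axis, mean over CpG positions, %) in the 3 Tet2 WT libraries (blue) and the 3 Tet2 KO libraries (orange), for the 58 genes by family (y axis). The libraries of a gene lie close together, most genes stand under 10% in both genotypes, and Pax8, Tbx4, Pax3 and Wt1 stand highest.

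Pax genes encode paired-box factors that specify organs from the eye to the kidney and the thyroid. Their 7 windows averaged 14.5% ± 0.312 in WT and 15.4% ± 0.146 in KO, and 6 of the 7 KO means were higher. Beside this and the family counts below, 78.2% of all autosomal windows had a higher KO mean. All KO libraries lay above WT in 24% of them over positions and in 14.2% by reads. Pax8, which drives thyroid and kidney development, had the highest level of all 58 genes, at 27.7%, 30.1% and 31.4% in WT replicates 1, 2 and 3 and 33.7%, 33.2% and 32.9% in KO replicates 1, 2 and 3. The groups did not overlap and differed by 3.51 points over 42 CpG positions. By reads the difference was 4.74 points and did not pass (adjusted p = 0.498, limma-moderated test). Pax8 lies on chromosome 2 from 24420551 to 24475599.

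Pax9, a gene of tooth and thymus formation, was at 6.42%, 7.04% and 6.895% in WT and 7.28%, 8.28% and 8.53% in KO. Its KO libraries were all above its WT libraries, with adjusted p = 0.485 by the moderated test on reads. Pax7, which marks muscle stem cells, was also apart, at 14.1% ± 0.203 in WT and 14.8% ± 0.377 in KO over 341 positions. Pax1, a gene of the vertebral column, had the opposite sign and overlapping libraries, at 9.21%, 7.799% and 6.98% in WT and 8.11%, 6.78% and 7.68% in KO, and without WT replicate 1 its difference turned to 0.133 points. Pax6, the eye gene, had the lowest WT level of the family, at 6.35%, 7.27% and 5.87% in WT and 7.79%, 6.92% and 7.23% in KO, with overlapping libraries. Pax3 (23.6% ± 0.934 and 23.97% ± 0.582) and Pax2 (12.7% ± 0.185 and 13.02% ± 0.221) differed by less than 0.5 points. The B-cell factor gene of the family, Pax5, stood at 26.1% ± 1.61 of reads in WT and 30.9% ± 2.42 in KO and did not pass either (adjusted p = 0.272, limma-moderated test).

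Sox genes encode HMG-box factors of stem and progenitor cells. The KO mean was higher in all 7 windows, against 78.2% of autosomal windows, and the family averaged 5.07% ± 0.302 in WT and 5.64% ± 0.298 in KO. Sox1, an early neural gene, had the largest difference, at 2.97%, 2.64% and 3.63% in WT and 4.31%, 3.24% and 4.35% in KO. Its KO replicate 2 lay below WT replicate 3. Sox21 was the lowest, at 2.24%, 2.303% and 1.98% in WT and 2.400%, 2.63% and 2.796% in KO, where the groups did not overlap and differed by 0.436 points. By reads the difference was 0.123 points and the groups overlapped. Sox11 was the highest, at 8.19%, 9.97% and 10.4% in WT and 11.2%, 9.06% and 10.4% in KO, with a spread inside each genotype larger than the difference of 0.718 points, which was 0.0576 without WT replicate 1. Sox2, the pluripotency and neural stem cell gene, was at 4.95% ± 0.963 and 5.44% ± 0.274, and Sox14 at 8.104% ± 1.37 and 8.97% ± 0.596. Sox9 and Sox17, genes of cartilage and of endoderm, were at 4.05% ± 0.0626 and 3.63% ± 0.668 in WT and differed by 0.212 and 0.351 points.

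Nkx genes encode homeodomain factors of the ventral neural tube, heart, lung and gut. Their 6 windows averaged 4.95% ± 0.4902 in WT and 5.18% ± 0.356 in KO, a difference of 0.226 points that was 0.0270 without WT replicate 3. Nkx6-1, needed for pancreatic beta cells, differed most, at 2.05%, 2.59% and 2.12% in WT and 3.804%, 2.196% and 3.08% in KO, and its KO replicate 2 fell among the WT values. Nkx3-2, a skeletal gene, had the lowest WT level of the 58 genes, at 2.13%, 2.08% and 2.204% in WT and 2.799%, 3.201% and 2.55% in KO. All its KO libraries lay above its WT libraries. Nkx2-5, the heart gene, was the highest of the family and had a KO mean below its WT mean, at 6.89%, 8.32% and 5.94% in WT and 7.18%, 6.102% and 6.97% in KO. Nkx6-2, a gene of oligodendrocytes, was at 5.72%, 7.34% and 5.999% in WT and 6.36%, 5.67% and 5.99% in KO. Both of these differences turned positive by reads, at 0.483 and 0.356 points, and without WT replicate 2. That of Nkx2-5 also turned positive without KO replicate 2. Nkx2-1 and Nkx2-2 differed by 0.323 and 0.183 points.

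Lhx genes encode LIM homeodomain factors of the brain, pituitary and gonad. Their 6 windows averaged 7.79% ± 0.0625 in WT and 8.06% ± 0.0787 in KO, and over positions 0 of the 6 had groups that did not overlap. By reads Lhx4 and Lhx5 had all KO libraries above WT. Among all autosomal windows 24% had this over positions and 14.2% by reads. Lhx4, a pituitary gene, was the highest, at 11.5%, 12.7% and 11.7% in WT and 11.9%, 11.96% and 11.8% in KO. Over CpG positions its difference was -0.0737 points, but by reads it was 1.39 points, from 11.1% ± 0.328 to 12.5% ± 0.457. Lhx2 was the lowest, at 3.96%, 4.297% and 4.22% in WT and 4.52%, 4.100% and 4.32% in KO, with overlap. Lhx5 differed most, at 5.78%, 4.77% and 5.76% in WT and 6.16%, 6.27% and 5.69% in KO, also with overlap. Lhx9, a gonad gene, showed how much the weighting matters. It differed by 0.315 points over positions and by -2.22 points over reads (adjusted p = 0.414, limma-moderated test). Lhx1 and Lhx8 differed by 0.369 and 0.219 points.

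Six2, Six3 and Six6 encode relatives of the fly factor sine oculis and act in eye, forebrain and kidney. Their 3 windows averaged 4.35% ± 0.0833 in WT and 4.88% ± 0.238 in KO. The KO means were higher in all 3, against 78.2% of autosomal windows, though over gene spans without flanks the family difference was -0.122 points. Six6, an eye and pituitary gene, was both the lowest and the most different, at 3.42%, 2.68% and 3.83% in WT and 4.37%, 4.002% and 3.54% in KO. Its libraries overlapped, and its span alone differed by -1.24 points. Six3, the highest of the family, was at 5.93%, 6.52% and 5.87% in WT and 6.81%, 6.51% and 6.32% in KO. Six2, which maintains kidney progenitors, was at 3.64% ± 0.334 and 4.13% ± 0.272.

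Tbx genes encode T-box factors of heart and limb. The 4 windows averaged 12.7% ± 0.401 in WT and 13.7% ± 0.341 in KO, and all 4 KO means were higher, against 78.2% of autosomal windows. By reads the family difference was 0.267 points in place of 0.963. Tbx4, the hindlimb gene, was at 26.6%, 27.01% and 26.6% in WT and 30.1%, 28.7% and 27.97% in KO, and the groups did not overlap. Its difference of 2.17 points was 1.02 by reads (adjusted p = 0.763, limma-moderated test). Tbx2, the lowest, was at 4.24%, 4.63% and 3.73% in WT and 4.22%, 5.04% and 4.78% in KO, with overlap. Tbx5, the forelimb and heart gene, was at 13.3% ± 0.913 and 13.9% ± 0.3205, and Tbx3 at 6.57% ± 1.17 and 7.15% ± 1.04.

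Dlx genes encode distal-less homeodomain factors of forebrain interneurons and the jaw, and lie in pairs. The 4 windows averaged 3.55% ± 0.376 in WT and 4.100% ± 0.0814 in KO. Dlx1 was at 3.77%, 2.85% and 3.05% in WT and 4.89%, 5.19% and 5.25% in KO over 91 positions, a difference of 1.89 points that was 1.26 by reads and 0.875 over the gene span without flanks. Its partner Dlx2 was at 2.32%, 2.44% and 1.94% in WT and 2.57%, 2.57% and 2.82% in KO. Both genes were below the 5% needed for the test. Over positions every KO library lay above every WT library in both, as in 24% of autosomal windows. By reads this held for Dlx2, while Dlx1 overlapped, against 14.2% of autosomal windows. In the second pair the groups overlapped on both scales. Dlx5 was at 6.15%, 4.59% and 6.31% in WT and 5.99%, 5.74% and 5.38% in KO, and Dlx6 at 2.01%, 2.800% and 4.38% and 3.32%, 2.77% and 2.701%. The difference of Dlx5 was negative without WT replicate 2, without KO replicate 1 and with at least 20 reads per position.

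Irx genes encode Iroquois homeodomain factors of neural and heart patterning. The 4 windows averaged 5.02% ± 0.524 in WT and 5.67% ± 0.208 in KO, and all 4 KO means were higher, against 78.2% of autosomal windows. Irx1 had the highest level and the largest difference, at 7.77%, 6.19% and 5.94% in WT and 7.397%, 7.54% and 7.73% in KO, where WT replicate 1 lay above all 3 KO libraries. Irx2 had groups that did not overlap, at 5.86%, 5.91% and 5.19% in WT and 6.31%, 6.28% and 6.78% in KO. Irx5 was the lowest, at 3.33%, 2.62% and 2.39% in WT and 3.94%, 2.85% and 2.73% in KO, and Irx3 stood between them at 5.01% ± 0.365 and 5.499% ± 0.358.

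The 17 other genes divided between both directions, with 6.45% ± 0.195 in WT and 6.44% ± 0.304 in KO and 8 higher KO means, and their mean difference was 0.293 points by reads and changed sign in 5 of 12 alternatives. Over positions the groups overlapped in all 17, and by reads the KO libraries were all above the WT libraries in 4, Wt1, Foxa2, Hand2 and Olig1. Across autosomal windows the KO libraries were all above in 24% over positions and in 14.2% by reads. Wt1, a kidney and gonad gene, was the highest, at 18.2%, 18.6% and 18.2% in WT and 18.7%, 18.3% and 17.2% in KO. By reads it went from 17.3% ± 1.31 to 19.5% ± 0.7295, a difference of 2.19 points (adjusted p = 0.426, limma-moderated test). Neurod1, a gene of neurons and islet cells, was at 4.73%, 4.801% and 3.28% in WT and 3.603%, 2.08% and 4.400% in KO over 30 positions, the most negative difference of the 58 genes. With 5 kb flanks it was 0.826 points.

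Neurog1, which starts sensory neuron formation, was at 6.15%, 6.64% and 4.804% in WT and 5.501%, 5.602% and 4.67% in KO. Otx2, a forebrain gene, was at 8.49%, 7.14% and 8.82% and 8.61%, 7.12% and 7.16%, and turned to 0.110 points with 5 kb flanks. In both genes the libraries overlapped. En2, a midbrain gene, was the lowest of these genes, at 2.26%, 2.84% and 2.32% in WT and 2.35%, 2.25% and 2.69% in KO, and its difference of -0.0403 points changed sign in 4 of 12 alternatives. The endoderm factor genes Gata4, Gata6, Foxa1 and Foxa2 differed by 0.195, 0.0475, 0.0208 and 0.634 points. Foxc1, Foxd3, Foxf1, Hand2, Olig1, Olig2, En1 and Gsc lay between -0.181 (Foxf1) and 0.828 points (Hand2).

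**Figure D4:**
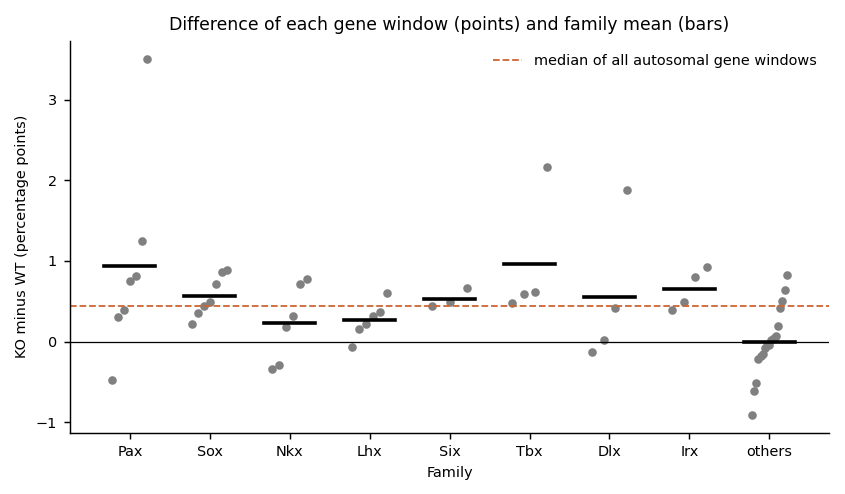
Difference of each gene window, KO minus WT (y axis, percentage points, mean over CpG positions), by family (x axis). Grey points are genes, black bars family means, and the dashed line the median of all autosomal gene windows (0.442 points). Most genes lie within 1 point of 0, and Pax8, Tbx4 and Dlx1 lie highest.

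The regions around the gene starts were lower still. A start region was the 1 kb on either side of the RefSeq start, or, for genes with no promoter entry in the table, of the annotated end with more covered CpG positions. Among 39 of the 58 genes with both a RefSeq start and covered ends, the denser end lay within 1 kb of the start in 28. All of the 58 genes but Otx2 and Tbx4, 56 in number, had at least 3 covered positions there. They averaged 4.37% ± 0.247 in WT and 4.51% ± 0.194 in KO. Their median WT level was 3.33%, against 0.496% over 13766 autosomal genes, and their median difference 0.223 points against 0.0665. The KO mean was higher in 38 of the 56, where it was in 64.5% of autosomal start regions. Of the 15 in the tested range 0 were called, where 0.0625% of 3198 start regions were called higher and 0% lower. The lowest adjusted p was 0.362 (limma-moderated test), for Wt1, the only one with an unadjusted p under 0.05, higher in KO. Over all tested start regions 10.2% had such a p in the higher direction and 1.19% in the lower. The unmoderated model and limma called 0 as well, with 1 and 0 at such a p.

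All 3 KO libraries lay above all WT libraries in 5 of the 56 start regions and below them in 0, where 10.2% and 2.35% of autosomal start regions did so. Nkx2-5 was at 14.7%, 14.6% and 13.5% in WT and 15.5%, 15.9% and 17.9% in KO over 15 positions, the largest difference of the 5. Six3, a forebrain gene, was at 2.69%, 1.45% and 2.55% in WT and 3.59%, 3.37% and 3.46% in KO. Wt1 was at 4.64% ± 0.2597 and 5.31% ± 0.183, Nkx3-2 at 2.29% ± 0.246 and 2.95% ± 0.173, and Lhx2 at 0.596% ± 0.2402 and 1.17% ± 0.236. By reads the Lhx2 libraries overlapped, while those of Irx3, Nkx6-2 and Olig1 were also apart, with KO above.

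The lowest start regions were those of Dlx1, Lhx2 and Dlx2, whose promoters are printed above. Dlx1 was at 0.664%, 0.698% and 0.288% in WT and 0.249%, 0.251% and 0.653% in KO over 41 positions. This start region was -0.166 points different, where the whole window differed by 1.89. Dlx2 was at 1.13%, 1.13% and 0.746% in WT and 1.34%, 1.602% and 0.9604% in KO. The highest were Gata4, a heart gene placed by its CpG-denser end, at 32.7%, 20.6% and 23.7% in WT and 21.9%, 25.3% and 17.4% in KO, and Pax8, at 14.7%, 25.6% and 15.95% and 19.7%, 19.7% and 15.6%. These rested on 9 and 8 positions, and the SD of the WT libraries was larger than the difference in both. The Gata4 difference changed sign with the weighting, from -4.14 points over positions to 3.32 by reads.

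Tiles of 1 kb were tested to find local differences that a whole window would hide. Tile levels are given by reads unless positions are named. The 58 windows touched 468 tiles with at least 3 covered positions, 273 of them in the tested range, and 0 were called. Over the genome 0.685% of 83114 tested tiles were called higher and 0.00241% lower. The lowest adjusted p of the 273 was 0.0992. An unadjusted p under 0.05 was found for 18 higher and 6 lower tiles. Over all tested tiles 10.1% and 1.39% had one. Limma and the unmoderated model called 0 of the 273, with 11 and 17 at such a p. The KO libraries were all above the WT libraries in 28 tiles and all below in 12, against 12.7% and 3.54% of all tested tiles. The median difference was 0.450 points in the 273 tiles and 1.28 in all tested tiles.

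Tbx3, a gene of limb and mammary gland, held the largest difference in each direction, in neighbouring tiles on chromosome 5. The tile from 119675001 to 119676000 was at 21.4%, 14.8% and 26.5% in WT replicates 1, 2 and 3 and 35.2%, 50% and 34.5% in KO replicates 1, 2 and 3, over 6 positions (adjusted p = 0.103, limma-moderated test). Every KO library was above every WT library. Without WT replicate 3 this tile was called, with a difference of 21.8 points (adjusted p = 0.0447, limma-moderated test). It was then 1 of 269 tested tiles of the 58 genes, where 1150 tiles were called higher and 14 lower of 82780, or 1.41%. The tile just before it, from 119674001 to 119675000, was at 18.7%, 22.03% and 24.9% in WT and 8.85%, 11.1% and 8.59% in KO over 4 positions, with every KO library below (adjusted p = 0.266, limma-moderated test). Both lie inside the gene's span, from 119670534 to 119684724.

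Further tiles with large differences in the higher direction lay in Pax8, Gata4, Tbx4 and Pax7. The Pax8 tile (chromosome 2, 24435001 to 24436000) was at 71.3%, 66.3% and 82.03% in WT and 93.4%, 89.3% and 89.5% in KO. The Tbx4 tile (chromosome 11, 85899001 to 85900000) was at 14.99%, 26.4% and 25.1% in WT and 26.5%, 37.9% and 41.5% in KO. In both the groups did not overlap. The Gata4 tile (chromosome 14, 63213001 to 63214000) was at 60.1%, 73.5% and 48.5% and 70.3%, 73.4% and 86.9%, with overlap by reads. Without WT replicate 3 its difference by reads was 10.1 points. Over positions its KO libraries were all above WT, though KO replicate 1 at 71.68% only just exceeded WT replicate 2 at 71.67%. The Pax7 tile (chromosome 4, 139814001 to 139815000) was at 3.35%, 3.65% and 0.4902% and 8.095%, 29.3% and 8.696%, where all KO libraries lay above WT and KO replicate 2 stood far above the other KO libraries. By reads the Pax7 tile differed by 12.9 points and over positions by 7.85. The adjusted p-values of these tiles were 0.244 to 0.313 by the limma-moderated test.

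Lower in KO were a second Gata4 tile (chromosome 14, 63272001 to 63273000), at 75.7% ± 6.09 in WT and 66.5% ± 5.797 in KO, and a Lhx1 tile, at 31.4% ± 6.46 and 23.6% ± 6.395. A Six2 tile was at 17.8% ± 8.91 and 10.5% ± 3.58, and another Tbx3 tile at 33.7% ± 9.92 and 26.6% ± 5.78. The libraries overlapped in all 4. With 1 library left out the Six2 difference ranged from -12.5 (without WT replicate 3) to -4.22 points (without WT replicate 2), and that of this Tbx3 tile from -12.6 to -2.89 without the same libraries. Averaged over positions these tiles differed by -3.59 and -1.97 points. The Lhx1 tile ranged from -11.1 (without WT replicate 1) to -4.65 points (without KO replicate 1). These 10 tiles held 3 to 6 CpG positions each and 83 to 1212 reads per library.

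**Figure D5:**
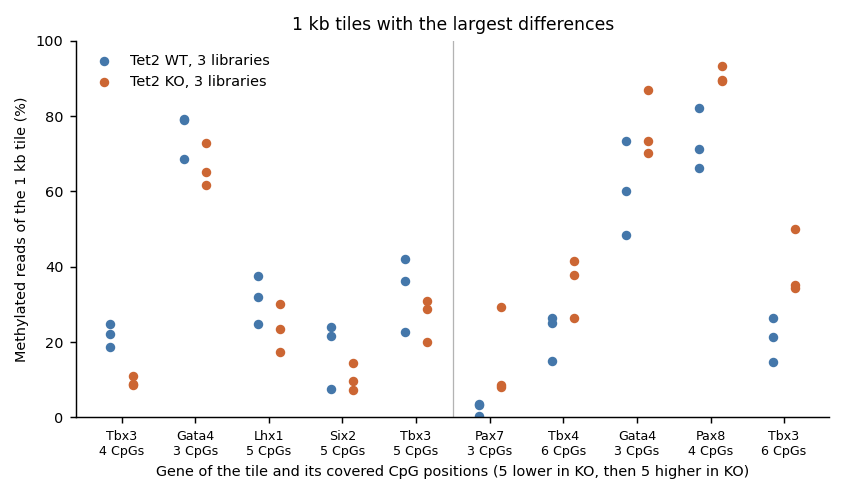
Methylated reads of a 1 kb tile (y axis, %) in the 3 Tet2 WT libraries (blue) and the 3 Tet2 KO libraries (orange), for the 5 tiles lowest and the 5 highest in KO relative to WT (x axis, gene and number of covered CpG positions). The Tbx3 tiles at the far left and far right are neighbours and differ by -12.4 and 19.02 points.

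At single positions 3606 of the 10742 were in the tested range, and 1 was called higher and 1 lower in KO. Over the genome 0.284% of 525213 tested positions were called higher and 0.0105% lower. An unadjusted p under 0.05 was found at 147 higher and 106 lower positions of the 58 genes. Over all tested positions 6.47% and 2.23% had one. Limma and the unmoderated model called 0 of the 3606, with 216 and 179 at such a p. Bisulfite reads of 1 position can be copies of few molecules, which were not told apart here.

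The position called higher lies in Lhx1, a gene of kidney and head formation, at chromosome 11, 84522223. It was at 0%, 1.71% and 0.613% in WT replicates 1, 2 and 3 and 27.9%, 15.1% and 14.1% in KO replicates 1, 2 and 3 (adjusted p = 0.0367, limma-moderated test), with 117 to 179 reads per library. The 7 other covered positions within 50 bases were at 15.5% ± 2.60 in WT and 17.0% ± 6.08 in KO. Within 500 bases there were 25, at 19.1% ± 2.88 and 17.6% ± 1.94. The position called lower lies in Lhx4, at chromosome 1, 155710083. It was at 100%, 100% and 100% in WT and 91.8%, 78.6% and 93.9% in KO (adjusted p = 0.0387, limma-moderated test), with 164 to 267 reads. Its 2 neighbours within 50 bases were at 78.3% ± 3.55 in WT and 67.5% ± 3.31 in KO. Within 500 bases there were 9, at 81.4% ± 4.60 and 75.8% ± 1.69. Only the neighbours of the Lhx4 position within 50 bases had KO libraries all below WT, and the other 3 sets of neighbours overlapped. Without WT replicate 2 both were still called, and without any other library neither was (adjusted p = 0.0509 to 0.276, limma-moderated test). Without KO replicate 2 the Lhx4 position left the tested range.

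Lists of related genes gave the same picture of small differences. Of 86 further developmental regulators, 85 had a window, at 8.504% ± 0.195 in WT and 9.01% ± 0.114 in KO, and 69 KO means were higher. Among the 48 tested 0 were called, and Irx4 had the lowest p, from 7.997% ± 0.210 of reads to 9.75% ± 0.345 (adjusted p = 0.291, limma-moderated test). The 39 Hox genes were at 13.8% ± 0.321 and 14.5% ± 0.141, with 0 of 27 called. The 33 genes of the Polycomb complexes were at 12.05% ± 0.336 and 12.5% ± 0.0512, with 0 of 18 called. Unadjusted p-values under 0.05 were found for 4, 3 and 1 genes of these lists, all higher in KO. Among all 12419 tested windows 11.5% had one with a higher level in KO and 0.636% with a lower one. Only 0% of those windows were called higher and 0.00805% lower.

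B-cell transcription factor genes had larger differences. Their 19 windows were at 25.8% ± 1.82 in WT and 28.6% ± 0.0652 in KO, and all 19 KO means were higher, against 78.2% of autosomal windows. Of the 17 tested 0 were called and 3 had an unadjusted p under 0.05 (limma-moderated test). Ebf1, which establishes B-cell identity, went from 30.6% ± 0.724 of reads to 37.6% ± 0.633 (adjusted p = 0.104, limma-moderated test). Relatives of the 58 genes that lymphocytes use, such as Sox4, Sox5, Gata3 and Pax5, were at 33.5% ± 1.16 and 35.8% ± 0.439. Of these 11, 10 KO means were higher and 0 of 8 tested were called, with 4 of the 8 at an unadjusted p under 0.05, all higher in KO. Over all tested windows 11.5% had such a p with a higher level in KO. Pax5 and Foxo1 are in both lists, so the lists are not separate. Limma and the unmoderated model called 0 of all 12419 tested gene windows. The difference between these lists and the 58 genes was not tested.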

How the data were processed

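Methylation was measured in 3 Tet2 WT and 3 Tet2 KO libraries, grouped by their labels. Alignment used Bismark and GRCm38, per the submitters' processing notes, and the sources used here give no other upstream step. For each CpG position and strand the deposited files hold the coverage, a count of reads, and the percent called C or T. The lowest deposited count was 10. Methylated reads were recovered from count and percent, and every value was whole within the rounding of the deposited percent (3 decimals). Levels are percentages of methylated reads per position, averaged over positions unless reads are named or a tile is described. Tile levels are methylated reads over all reads of the tile.

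The quasi-binomial F test used Pearson dispersions moderated by limma's method, coded in Python 3.11.15, matching limma 3.58.1 and tested on simulated data. The genes and lists were chosen with earlier results of these data known. Genes named with library values were those with a call, the lowest, highest and most different of each family, and the 5 largest differences in each direction. Others are named where a count or a family is given in full, chosen after their values were seen. Lists were matched by symbol, 86 of 87 for the further developmental regulators. Where a gene has several RefSeq promoter entries, the start farthest upstream among them was used. For some genes, such as Lhx9 and Tbx4, that start lies inside the annotated span and not at its edge. Exons and introns were not used here. Alternatives covered the model, the filters, coverage, strands, weighting, flanks and each library left out. Some marker genes are not reported here.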

Additional observations from a re-analysis of the deposited data

How the results depend on the processing

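The counts of called gene windows and start regions of the 58 genes were 0 under every alternative run, and that of tiles was 0 except without Tet2_WT replicate 3, so leaving out 1 library gave 0 to 1 tiles. The count of called single positions was 2 and depended most on the setting. It was 0 with limma on log2 ratios, 0 with unmoderated dispersion and 0 with a replicate block, 1 with all covered positions tested, 2 with no minimum difference or without the top 0.1% of coverage, 3 with at least 20 reads or both strands added, and 0 to 6 with 1 library left out. The share called over all tested positions was 0.294% in the main test, 0.394% with at least 20 reads, 0.339% with both strands added, 0.594% without Tet2_WT replicate 2 (6 called), 0.701% without Tet2_WT replicate 3 (5 called) and 0.105% to 0.145% without any other library (0 or 1 called). The mean difference over the 58 genes stayed between 0.311 and 0.501 points in 12 alternatives. The replicate numbers were not taken to pair the libraries, since over tested tiles the deviations of same-numbered libraries correlated at 0.0229, 0.00220 and 0.00371, and not every library correlated best with its own number. The mitochondrial methylated share was close in same-numbered libraries 1 (0.260% and 0.258%) and 2 (0.410% and 0.408%) and less so in 3 (0.241% and 0.294%), and whether these were handled together is not given by the labels. The replicate block changed the calls over all tested tiles from 569 higher and 2 lower to 886 and 6. The main test left out the 25 windows outside its range, and with them included 0 of 58 were called. Under that setting 10 had an unadjusted p under 0.05, and the share of all windows with such a p was not counted.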

Other observations

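Within the 58 windows 12902 CpG positions were listed in at least 1 library. Of these 9 were listed in all 3 WT libraries and in no KO library, and 5 in all 3 KO libraries and in no WT library.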
